A study of Mus musculus with 4 samples.

Results

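Cytoplasmic dynein-2 is the motor that carries intraflagellar transport (IFT) trains from the tip of a cilium or flagellum back to its base. It is built from a heavy chain with the motor domain, a light intermediate chain, a pair of intermediate chains and several light chains, and it is distinct from dynein-1, which moves cargo along microtubules in the cell body. In the testis, round spermatids build a flagellum, and many genes for cilia carry in their promoters the X-box, an inverted repeat bound by Regulatory Factor X (RFX) transcription factors, of which RFX2 is abundant in meiotic and post-meiotic male germ cells. RFX2 binding was examined here at 6 dynein-2 genes out of 21938 protein-coding genes. They were grouped by the function of their products, and were chosen with earlier results of these data known. These genes are Dync2h1 (heavy chain), Dync2li1 (light intermediate chain), Wdr60 and Wdr34 (intermediate chains), Tctex1d2 (Tctex-type light chain) and Dynlrb2 (roadblock-type light chain). All 6 had exactly 1 RFX2 peak in the promoter in each of the 3 deposited peak lists.

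The lists came from ChIP-seq, in which chromatin is immunoprecipitated, here with an antibody to RFX2, and the recovered DNA is sequenced and mapped. The samples were 2 RFX2 ChIP libraries and 2 input libraries, each numbered 1 and 2, from wild type (WT) mice of mixed C57BL/6, 129/Sv and FVB/N background. The design text of the series speaks of 2 independent mice, and the replicates are called animals here on that basis. The labels give decapsulated testis and an age of postnatal day 29 to 30 for all 4 samples, whereas the study's text describes dissociated germ cells of younger WT animals. Whole-tissue chromatin mixes cell types, and the lists hold binding sites and no expression, so neither the tissue label nor the bound cell type could be checked against marker genes. There was no ChIP without RFX2 and no second condition, and the inputs entered only through the authors' peak calling.

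The replicate 1 list held 39825 peaks, the replicate 2 list 21274 and the combined list 2726. Each peak of the replicate lists has a score on a −log10 scale, and the combined list gives −log10 p, the fold enrichment over local background and the summit, the position of the highest signal. Scores are not corrected to a common read depth, which is unknown, so they are compared by rank within a list. With 2 animals, the pair of values per gene is the only measure of spread. The combined list was treated as a call on the pooled reads of both animals, so that a peak found both there and in a replicate has not been seen independently. A promoter is the stretch from 1000 bp upstream to 500 bp downstream of any annotated transcription start site (TSS), and a promoter peak is one that meets it by at least 1 bp.

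To show where on the DNA the peaks were centred, 101 bases of mouse reference sequence (GRCm38) are given for each gene, in the direction of transcription, with the summit of the combined list at base 51. In the first 4 sequences the capitals mark an X-box with at most 3 mismatches. In Dynlrb2 they mark a pair of exact half-sites that stand closer together than in the X-box, and Wdr60 had neither.
Dync2h1, chr9:7176984-7177084, minus strand: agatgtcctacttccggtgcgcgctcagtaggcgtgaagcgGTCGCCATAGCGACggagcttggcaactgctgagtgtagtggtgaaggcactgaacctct
Dync2li1, chr17:84626411-84626511, plus strand: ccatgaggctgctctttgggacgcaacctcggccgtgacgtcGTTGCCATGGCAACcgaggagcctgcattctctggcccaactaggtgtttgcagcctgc
Wdr34, chr2:30048819-30048919, minus strand: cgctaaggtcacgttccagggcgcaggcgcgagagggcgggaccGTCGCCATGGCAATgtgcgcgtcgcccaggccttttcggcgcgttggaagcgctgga
Tctex1d2, chr16:32419679-32419779, plus strand: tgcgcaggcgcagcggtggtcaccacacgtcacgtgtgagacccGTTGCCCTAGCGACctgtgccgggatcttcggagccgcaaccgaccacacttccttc
Dynlrb2, chr8:116504902-116505002, plus strand: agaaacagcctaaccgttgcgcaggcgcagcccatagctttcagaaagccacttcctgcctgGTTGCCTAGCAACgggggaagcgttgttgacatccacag
Wdr60, chr12:116262963-116263063, minus strand: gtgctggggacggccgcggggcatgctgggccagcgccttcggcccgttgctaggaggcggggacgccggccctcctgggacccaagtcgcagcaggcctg

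Promoter peaks were present at 6 of the 6 dynein-2 genes in the combined list, where 5.26% of all protein-coding genes had one (1153 of 21938). The same 6 of 6 held in the replicate 1 list, where the share of all genes was 14.0% (3066 genes), and in the replicate 2 list, where it was 11.3% (2474 genes). The peaks of the animals overlapped at all 6 genes. Over the 3555 protein-coding genes with a promoter peak in either animal, the peaks of both animals overlapped in 1925, or 54.1%. Among promoter peaks that reached the combined list, as those of all 6 genes did, 1003 of 1003 (100%) were met by both replicates. The overlap at these genes is thus no more than that of comparable peaks. The study's methods describe a selection of peaks reproducible between the replicates. If the combined list was made in that way, its overlap with both replicates was fixed in advance. No test was made of these counts, because the genes were singled out with results of these data known.

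The strength of the peaks spanned much of the list. In the combined list −log10 p at the 6 genes ran from 56.4 to 284 with a median of 166, against a median of 103 over all 1003 promoter peaks. Fold enrichment ran from 9.40 to 34.0 with a median of 17.4, against 15.0 over all promoter peaks. Ranked by −log10 p the order was Dync2h1, Dync2li1, Tctex1d2, Wdr34, Wdr60 and Dynlrb2. Replicate 1 gave the same order. In replicate 2, Tctex1d2 stood above Dync2li1 and Wdr60 above Wdr34, so the order within these pairs was not the same in both animals. By these scores Dync2h1 was first and Dynlrb2 last in all 3 lists. By fold the order in the combined list was Dync2li1, Dync2h1, Tctex1d2, Wdr60, Dynlrb2 and Wdr34.

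**Figure D1:**
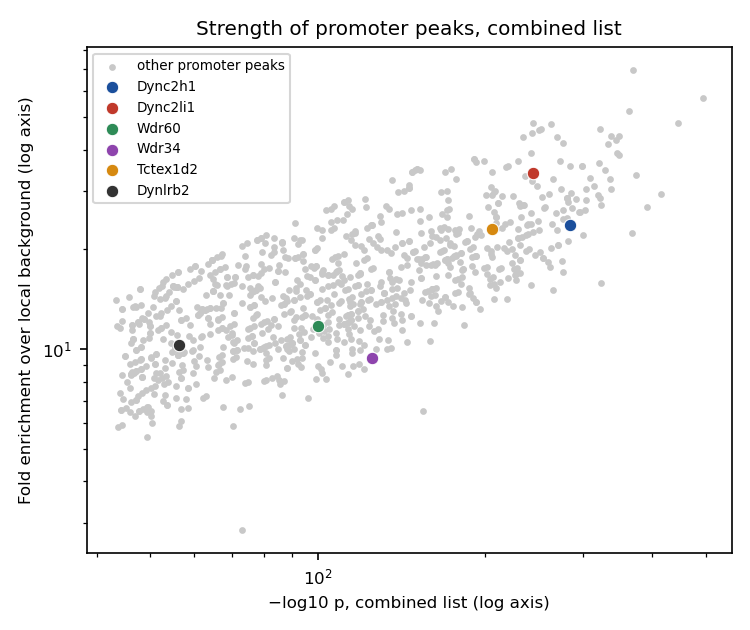
Each point is 1 of the 1003 promoter peaks of the combined list, with −log10 p on the horizontal axis and fold enrichment over local background on the vertical axis (both log axes), and the 6 dynein-2 genes in colour. Dync2li1 has the highest fold of the 6 (34.0) and Dync2h1 the highest −log10 p (284), whereas Wdr34, Wdr60 and Dynlrb2 lie below the median fold of 15.0.

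Dync2h1 (ENSMUSG00000047193.16) encodes the heavy chain, the subunit that hydrolyses ATP and walks along the microtubule. Its promoter peak lay at chr9:7176294-7177658, was 1365 bp wide and ranked 57 of 2726 in the combined list, where its −log10 p was 284 and its enrichment 23.7-fold. The score was 251 in replicate 1 (rank 50 of 39825) and 121 in replicate 2 (rank 63 of 21274). By fold the peak ranked only 559, so its standing by −log10 p was higher than its standing by enrichment. The summit at 7177034 lay in an untranslated exon, 10 bp downstream of a TSS at 7177044.

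The annotation of Dync2h1 also holds a transcript, Dync2h1-204, that starts at 7184446, 7402 bp upstream of that TSS. No peak of any list met the promoter of this upstream start, and the peak nearest to it was the one just described, 6.79 kb away in the combined list, 6.83 kb in replicate 1 and 6.91 kb in replicate 2. RFX2 was thus listed only at the start sites between 7176957 and 7177046. The starts farther downstream, at 7117588, 7116629, 7111543 and 6956689, had no promoter peak in any list either.

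Dync2li1 (ENSMUSG00000024253.9) encodes the light intermediate chain, which binds the heavy chain and stabilises it. Its peak, at chr17:84626076-84626749, was the narrowest of the 6 in the combined list (674 bp) and had the highest fold of the 6, 34.0, above that of 95.7% of promoter peaks. It ranked 116 by −log10 p (244) and 161 by fold. The score was 182 in replicate 1 (rank 167) and 83.0 in replicate 2 (rank 191). The summit lay 35 bp upstream of the TSS, the largest distance among the 6. The peak also met the promoter of AC132353.2, a noncoding gene on the opposite strand, and from these lists binding cannot be assigned to one or the other.

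The intermediate chains had weaker peaks. Wdr60 (ENSMUSG00000042050.8) and Wdr34 (ENSMUSG00000039715.8) encode WD-repeat proteins that dimerise with each other and hold the light chains. The Wdr60 peak, at chr12:116262849-116263620, had rank 1039, a −log10 p of 100.1 and a fold of 11.7. Its score was 59.6 in replicate 1 (rank 1467) and 48.1 in replicate 2 (rank 547). The summit at 116263013 lay 9 bp downstream of the TSS in an untranslated exon.

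The Wdr34 peak, at chr2:30048677-30049443, ranked 689 with a −log10 p of 125 but had the lowest fold of the 6, 9.40, which ranked 2557 of 2726. Its score was 119 in replicate 1 (rank 478) and 45.9 in replicate 2 (rank 591). The summit at 30048869 fell in the first coding exon, 12 bp downstream of the TSS of the protein-coding transcript and 8 bp upstream of that of a noncoding one. The start codon of Wdr34 is annotated at 30048867 to 30048869, so that the summit coincided with a base of the start codon.

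The light chain genes differed in rank, with Tctex1d2 behind Dync2h1 and Dync2li1, and Dynlrb2 last, by −log10 p. Tctex1d2 (ENSMUSG00000014075.15) encodes a Tctex-type light chain found in dynein-2. Its peak, at chr16:32419101-32420520, was the widest of the 6 (1420 bp) with rank 236, −log10 p 206 and fold 23.0. The score was 136 in replicate 1 (rank 365) and 97.9 in replicate 2 (rank 127). The summit at 32419729 lay between start sites, 27 bp downstream of the 5′-most TSS and 17 bp upstream of the next.

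Dynlrb2 (ENSMUSG00000034467.7) encodes a roadblock-type light chain, a paralog of the more widely expressed Dynlrb1. Its peak, at chr8:116504527-116505262, had the lowest −log10 p of the 6 (56.4, rank 2080). Its fold of 10.3 was above that of Wdr34 (9.40). The score was 55.9 in replicate 1 (rank 1583), whereas in replicate 2 it was 9.46 (rank 3798), on a peak of 234 bp against 907 bp in replicate 1. The animals thus differed more at Dynlrb2 than at any of the other 5 genes. The summit at 116504952 lay 22 bp upstream of the TSS.

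**Figure D2:**
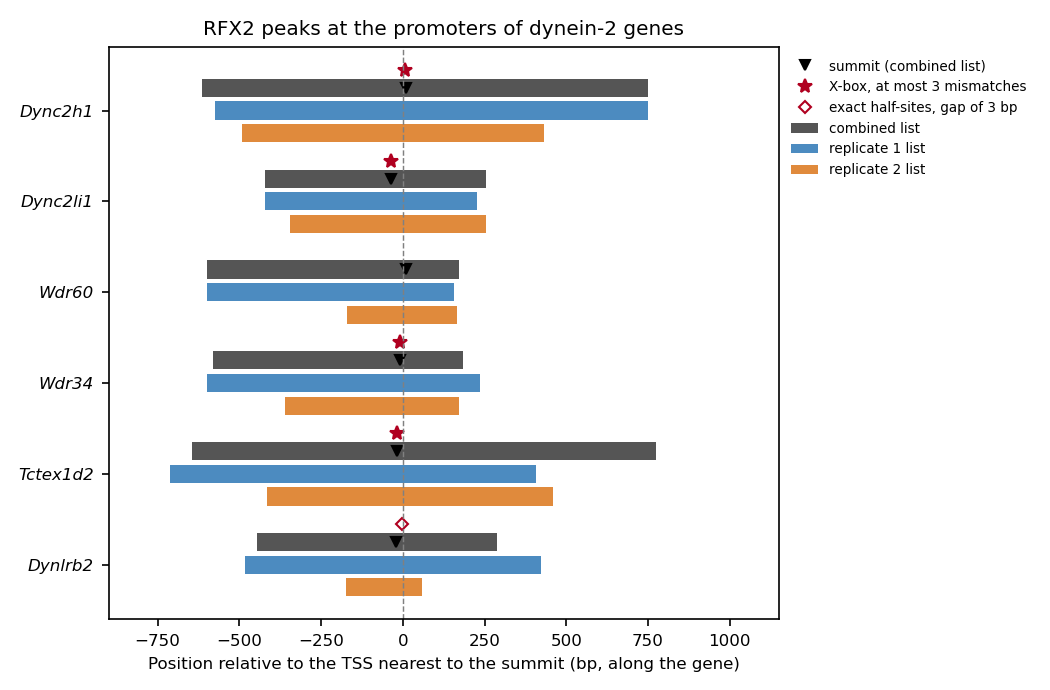
Horizontal bars show the promoter peak of each dynein-2 gene in the combined list (grey), replicate 1 (blue) and replicate 2 (orange), in bp along the gene from the TSS nearest to the summit (dashed line). Triangles mark the summit, stars the centre of an X-box with at most 3 mismatches and the diamond the exact half-sites with a gap of 3 bp at Dynlrb2, and all summits lie within 35 bp of the TSS.

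The summits lay close to the start sites. The distance from the summit to the nearest TSS was between 8 and 35 bp at all 6 genes with a median of 13.5 bp, whereas the median over all promoter peaks was 58 bp and 41.6% of these (417 of 1003) had the summit within 40 bp of a TSS. A gene with many annotated TSSs has more chances of a short distance, and with the 5′-most TSS alone the distance at Dync2h1 was 7412 bp. Relative to the nearest TSS the summit was upstream in Dync2li1, Wdr34, Tctex1d2 and Dynlrb2 and downstream in Dync2h1 and Wdr60, while 71.5% of all promoter peaks had an upstream summit. In addition, 0 of the 6 peaks met the promoter of another protein-coding gene, as 161 of 1003 promoter peaks (16.1%) did, so these peaks were not shared with a divergent protein-coding neighbour.

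The animals were compared gene by gene. The score in replicate 1 divided by that in replicate 2 had a median of 2.08 over the 1003 promoter peaks, with 10% of peaks below 1.24 and 10% above 3.79. The ratio was 2.07 at Dync2h1, 2.20 at Dync2li1, 2.58 at Wdr34, 1.39 at Tctex1d2 and 1.24 at Wdr60. At Dynlrb2 it was 5.91, higher than in 97.6% of the promoter peaks. Dynlrb2 was thus weaker in replicate 2 than the general difference between the lists, and Wdr60 was at the lower of these limits. In replicate 2, reads that mapped to the human genome had been removed from 1 of its sequencing runs, and whether this bears on Dynlrb2 was not tested.

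The peaks of replicate 2 lay largely inside those of replicate 1. Between 94.2% and 100% of the replicate 2 peak was covered at each of the 6 genes, but only 25.8% of the replicate 1 peak at Dynlrb2 and 43.5% at Wdr60. At each gene the peaks of both animals covered the summit of the combined list. Peak centres were between 28.5 bp (Dynlrb2) and 217.5 bp (Wdr60) apart. The peaks differed in width and the replicate lists give no summits, so summit positions could not be compared between the animals.

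**Figure D3:**
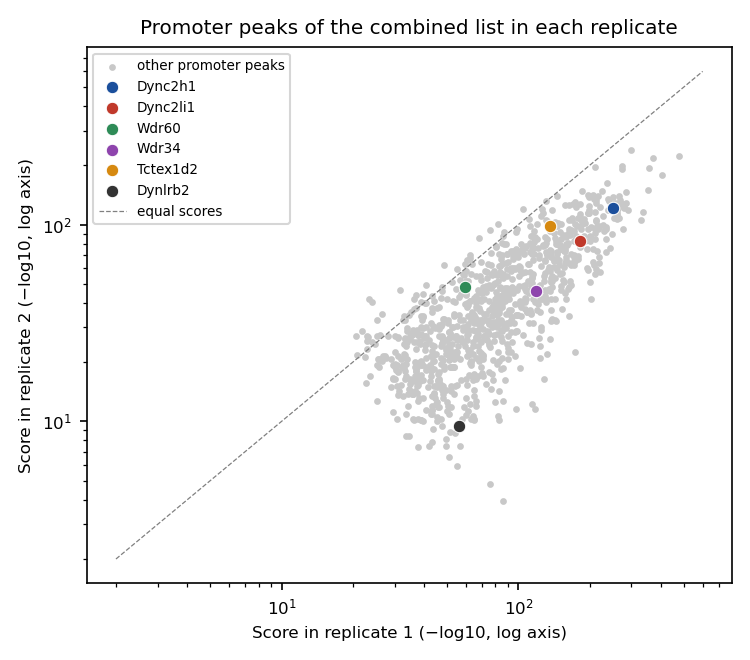
Each point is a promoter peak of the combined list, placed by the score of the overlapping peak in replicate 1 (horizontal) and replicate 2 (vertical), both −log10 on log axes, with the dashed line at equal scores. The 6 dynein-2 genes (coloured) lie below the line, and Dynlrb2, with 55.9 and 9.46, is the farthest of them from it.

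To find which sequence the peaks share, the X-box was derived from the peaks that do not belong to dynein-2 genes. The word of 8 bases with the largest excess over flanking windows, atggcaac, was present in 1104 of 2720 windows of 200 bp around the summit (40.6%) and in 33 of 5440 flanks (0.607%). Its inverted repeat is GTTGCCATGGCAAC, whose ends GTTGC and GCAAC are called half-sites and stand 4 bp apart. A match with at most 3 mismatches, on either strand and within 100 bp of the summit, is called an X-box, and positions are counted from 1 at its 5′ end. By this definition 58.9% of the promoter peaks (591 of 1003) had an X-box, against 0.798% of windows placed 1000 bp away. Outside promoters the share was 85.0% of 1723 peaks.

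Of the 6 dynein-2 genes 4 had an X-box, which is near the share over all promoter peaks. Dync2li1 had the inverted repeat without a mismatch at 84626453 to 84626466, as only 16 of the 1003 promoter peaks did (1.60%). The X-box of Wdr34 at 30048862 to 30048875 differed by T3C and C14T and contained the start codon. That of Dync2h1 at 7177030 to 7177043 differed by T3C, G9A and A12G, and that of Tctex1d2 at 32419723 to 32419736 by A7C, G9A and A12G. The centre of these 4 sites lay at most 2.5 bp from the summit, and none of the 4 peaks held another match with at most 3 mismatches over its whole length.

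Of the 4 X-boxes, 3 carried the same kind of change. In an inverted repeat, T3C on one strand is A12G on the other, and Dync2h1, Wdr34 and Tctex1d2 all had T3C or A12G, Dync2h1 having both. This change, which places a CG dinucleotide in the half-site, was found in 35.6% of the 587 X-boxes of other promoter peaks and in 16.7% of the 1465 X-boxes outside promoters. The pair G9A and A12G, present at Dync2h1 and Tctex1d2, was found on either strand in 16 of the 587 (2.73%) and in 12 of the 1465 (0.819%). These features were chosen after the sequences had been seen and are a description only.

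The remaining genes had no X-box. The best match at Dynlrb2 had 5 mismatches, but 18 bp from the summit, at 116504964 to 116504976, both half-sites were present without a mismatch and only 3 bp apart. Exact half-sites with this gap were found in 31 of 1003 promoter peaks (3.09%), and in 0 of 1003 flanking windows, which allows a share of up to 0.299%. Among the 412 promoter peaks with no X-box there were 30 (7.28%). With a gap of 4 bp, exact half-sites were found in 60 promoter peaks (5.98%). Dynlrb2 thus carried an arrangement that was uncommon in promoter peaks and was not counted by the X-box definition.

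Wdr60 stood farthest from the X-box. Its best match had 7 mismatches, and 99.5% of the promoter peaks had a closer one. A single half-site, GTTGC, lay 2 bp from the summit, followed after a gap of 3 bp by a second arm with 3 mismatches (116263005 to 116263017). At least 1 half-site within 25 bp of the summit was present in 245 of the 412 promoter peaks without an X-box (59.5%) and in 19 of their flanks (4.61%), so this feature was shared with most such peaks. The peak of Wdr60 nevertheless ranked above that of Dynlrb2 in all 3 lists.

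**Figure D4:**
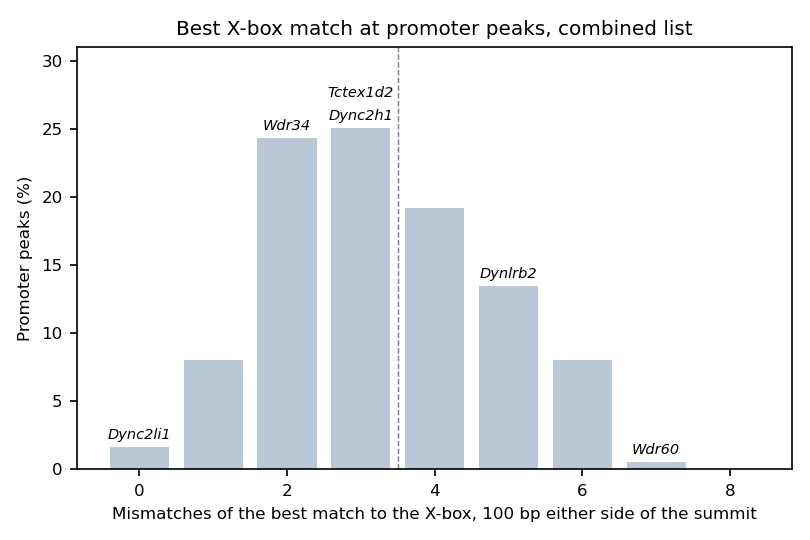
Bars show the share of the 1003 promoter peaks of the combined list (in %) by the number of mismatches between the X-box and its best match within 100 bp of the summit, and the dashed line marks the limit of 3 mismatches. Dync2li1 is in the class without mismatches, Wdr34 in the class with 2, Dync2h1 and Tctex1d2 with 3, Dynlrb2 with 5 and Wdr60 with 7.

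Base composition and other motifs varied among the genes. The G+C content of the 200 bp around the summit was 57.5% at Dynlrb2, 59.5% at Dync2h1, 60.0% at Dync2li1, 62.5% at Tctex1d2, 70% at Wdr60 and 70.5% at Wdr34, against a median of 59.0% over promoter peaks. Both intermediate chain genes were thus richer in G+C than 93% of the promoter peaks. Within 150 bp of the summit, the word CCAAT was present at Dync2h1 alone (40.8% of promoter peaks), GGGCGG at Dync2li1, Wdr34 and Dynlrb2 (49.2%) and TGACGTCA at none (4.59%), each on either strand. A match of letters does not show that a factor binds there.

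X-boxes were less frequent in promoters at large. In the table of RefSeq promoters, which run from 250 bases before to 50 after the gene start, 1108 of 32851 held an X-box (3.37%). Of the dynein-2 genes 5 were matched in that table, and Dync2h1, Wdr34 and Tctex1d2 held an X-box there.

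RFX2 was listed at few other places in or near these genes. Within the genes and 10 kb on either side, the combined list held 1 further peak, which lay in the promoter of Set, 8.51 kb from the Wdr34 summit, and ranked 2369. The nearest other combined peak was 75.2 kb away for Dync2li1 and between 132 and 711 kb for the other 4 genes. Inside the genes, replicate 1 held 5 further peaks, all in Dync2h1, and replicate 2 held 2, in Dync2h1 and Tctex1d2. Their scores were at most 7.27, and none had a partner in the other animal. The one in Tctex1d2 lay inside the combined promoter peak, near its downstream end. In the 10 kb on either side, replicate 1 held 7 peaks and replicate 2 held 1, with the peak at Set the only one found in both.

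The other cytoplasmic dynein genes were looked up in the same way. Of 5 genes for subunits specific to dynein-1 (Dync1h1, Dync1i1, Dync1i2, Dync1li1 and Dync1li2) 0 had a promoter peak in any of the 3 lists. The nearest combined summit was between 29.7 and 2682 kb from their TSSs. Of 8 other genes for cytoplasmic dynein light chains, 1 had a promoter peak, and it had one in all 3 lists. Dynlrb2 was counted with the dynein-2 genes and not here, and whether its product serves dynein-2 alone was not examined. With 5.26%, 14.0% and 11.3% of all protein-coding genes having a promoter peak in the combined, replicate 1 and replicate 2 lists, counts of 0 of 5 and 1 of 8 are near the background and show nothing particular to these genes. A gene without a listed peak may still be bound below the authors' threshold.

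The light chain gene with a peak was Dynll1 (ENSMUSG00000009013.5), whose product also serves in many complexes outside dynein. Its peak, at chr5:115300956-115301476, had rank 608, a −log10 p of 136 and a fold of 12.4, and its score was 85.9 in replicate 1 and 53.3 in replicate 2. These values lie between those of Tctex1d2 and Wdr34 in the combined list. The summit was 139 bp upstream of the TSS, farther than at any dynein-2 gene, and the best match to the X-box had 4 mismatches (G1A, T3C, A7C and T8G). Dynlrb1, the paralog of Dynlrb2, had no promoter peak in any list, and the nearest combined summit was 462 kb away.

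In the 250 bp before to 50 bp after every annotated TSS, 4 of the 6 dynein-2 genes held an X-box, against 0 of the 5 dynein-1 and 0 of the 8 light chain genes. Over all protein-coding genes the share was 6.92% (1519 of 21938), so counts of 0 in lists of this size are near the background. In the same window an X-box was held by 1 of 6 IFT-A genes (Ift140) and 1 of 5 kinesin-2 genes (Kif3a). Neither had a promoter peak in the combined list. Ift140 had one in replicate 1 (score 27.6, rank 3322) and in replicate 2 (score 25.5, rank 1355). Kif3a had one in replicate 1 (rank 8518) and none in replicate 2. Ift140 and Kif3a are named after their values were seen. The closest matches in these promoters had between 4 and 6 mismatches at dynein-1 genes and 4 or 5 at light chain genes. Wdr60 and Dynlrb2, with 5 each, were within that range although both had a promoter peak.

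**Figure D5:**
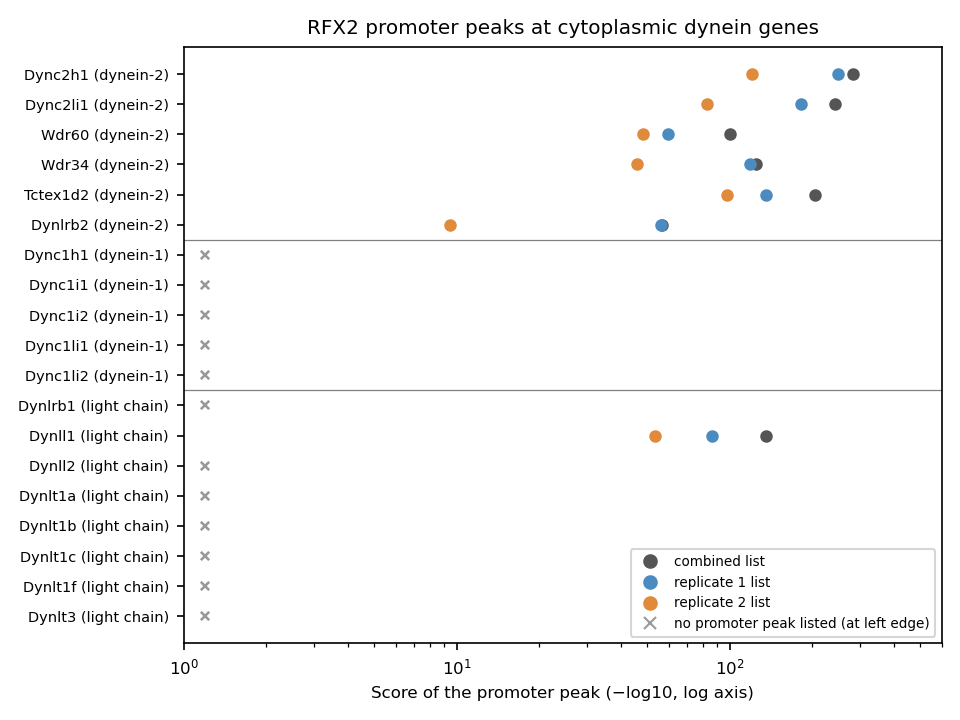
Each row is 1 of 19 cytoplasmic dynein genes, grouped as dynein-2, dynein-1 or light chain, and points give the score of its promoter peak (−log10, log axis) in the combined list (grey), replicate 1 (blue) and replicate 2 (orange). Crosses at the left edge mark genes with no promoter peak listed, which are all 5 dynein-1 genes and 7 of the 8 light chain genes.

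Other parts of the transport machinery were counted for context. Of 6 genes of the IFT-A complex, 3 had a promoter peak in the combined list, 5 in replicate 1 and 5 in replicate 2. The shares over all protein-coding genes in these lists were 5.26%, 14.0% and 11.3%. Of 5 genes of kinesin-2, the motor that moves trains in the direction opposite to dynein-2, 0 had a promoter peak in the combined list, 3 in replicate 1 and 2 in replicate 2. The combined list holds only peaks with a −log10 p of 43.2 or more.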

How the data were processed

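The authors made 2 RFX2 ChIP and 2 input libraries from testis of WT mice, 2 in number per the series' design text. Per the study's methods and processing notes, reads were handled with CASAVA 1.8.2 and mapped to GRCm38 (Ensembl release 70) with Bowtie 0.12.7, and reads with several locations were discarded. Peaks were called with MACS2 2.0.10.20130520 against input, without its fragment model. A default call, a relaxed call and an IDR threshold of 0.01 are described, and which call was deposited is not given in the sources used here.

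The replicate lists were deposited with 1 value per peak on a −log10 scale, of a p-value or a q-value (not stated). The combined list was deposited with −log10 p, −log10 q, a score derived from the former, a fold ratio over local background and the summit. It is attached to replicate 2 in the archive, and its peak names begin with "all". Read depth is unknown, and no interval was derived from it.

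TSSs were those of all transcripts in GENCODE mouse release 21, and sequence was that of GRCm38 patch 6. Peaks were intersected with promoters and scanned for the X-box in Python 3.11.15 with numpy 2.4.6 and pysam 0.24.0, and figures were drawn with matplotlib 3.10.9. The scripts were tested on simulated data. No statistical test was made. The genes, comparison lists and alternatives were chosen with earlier results of these data known. Named genes were the 6 dynein-2 genes, other cytoplasmic dynein genes with a promoter peak, and genes that share a peak or lie next to one. Naming the remaining dynein genes, the search for half-sites with other gaps, the single half-site and the shared base changes were added after values had been seen. Alternatives covered the promoter window, the TSS used, the list threshold, the overlap between replicates, the window and mismatches of the X-box, and ranking by fold.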

Additional observations from a re-analysis of the deposited data

How the results depend on the processing

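Of 27 alternatives for the counts, 25 stayed within 1.5 times the main value. The number of dynein-2 genes with a promoter peak was 6 with the narrower promoter (500 bp upstream to 50 bp downstream) in every list. When either replicate was left out, the list of the other animal was used. This repeats the 6 of 6 already given for that list and is no further check, though such alternatives are among the 25. The number was 5 in each list with the 5′-most TSS alone, as the Dync2h1 peak was then lost. It was also 5 in the top 50% of the combined list and in the top 10% of the replicate 2 list, where Dynlrb2 was lost. The shares of all protein-coding genes under these altered settings are not given, and those printed earlier hold for the main setting only. The overlap of the replicates held for 4 genes with a reciprocal overlap of 50% and for 3 with centres within 100 bp. The share of all genes that kept the overlap under either rule is not given, so these counts have no background beside them. An X-box was counted at 2 genes with at most 2 mismatches, where 33.9% of all promoter peaks had one (340 of 1003). It was counted at 3 genes with windows around the peak centre, for which a share over all promoter peaks is not given. Half-sites 3 or 4 bp apart with at most 2 mismatches, a looser alternative chosen after the data were seen, were present at 5 genes. Over all promoter peaks such half-sites were found in 26.5% with a gap of 3 bp and in 62.8% with a gap of 4 bp. With the 5′-most TSS the summit lay downstream at 12 bp in Wdr34 and 27 bp in Tctex1d2, in place of −8 and −17 bp. Ranked by fold in place of −log10 p, every gene stood lower in the list, at 161 for Dync2li1, 559 for Dync2h1, 612 for Tctex1d2, 2331 for Wdr60, 2469 for Dynlrb2 and 2557 for Wdr34. No paired analysis was possible because no comparison between groups was tested. The lists hold only peaks above the authors' thresholds, so depth limits the statement that a peak is missing.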
